A study of Mus musculus with 16 samples.

Results

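Semaphorins, plexins and neuropilins are the ligands and receptors of a guidance system, and their transcripts were followed in skeletal muscle of obese mice. This family was picked with earlier results of these data known. Its members were taken by gene symbol, as every gene of semaphorin classes 3 to 7, every plexin and both neuropilins. They were 31 of the 55471 genes in the deposited count table. Of these, 20 are ligands (7 of class 3, 6 of class 4, 2 of class 5, 4 of class 6 and 1 of class 7) and 11 are receptors (9 plexins and 2 neuropilins). Each of 16 libraries is skeletal muscle of 1 male mouse, and the muscle that was sampled is not named in the labels. Of these mice, 10 carry the label heterozygous (Npr1+/-, with 1 disrupted copy of the gene for the natriuretic peptide receptor GCA in all cells) and 6 the label wildtype (Npr1+/+ littermates). By the study's methods, the line was backcrossed to C57BL/6J, mice of both labels were 12 weeks old when used, and the HFD had 60% of its calories as lipid and was fed for up to 12 weeks. The mice came from 4 cages that each held both labels, and the heterozygous mice weighed 43.6 ± 3.79 g (SD, n = 10) and the wildtype mice 47.4 ± 4.69 g (SD, n = 6).

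Semaphorins are secreted or membrane-bound proteins that share an extracellular sema domain. Plexins are their transmembrane receptors, and the cytoplasmic part of a plexin switches off small GTPases of the Ras and Rap families, which loosens the adhesion and reshapes the cytoskeleton of the receiving cell. Most secreted class 3 semaphorins cannot grip a plexin alone and bind through a neuropilin, which also serves as a co-receptor for VEGF on vessels. The system is best known for steering growing axons and vessels, and in muscle it is studied at the neuromuscular junction, in the capillary bed and in satellite cells.

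The promoters of 4 members on which the comparisons turn are shown first, so that the genes can be seen beside their values. Plxnd1 is the receptor with the highest level, Sema4a had the smallest p-value by genotype label, Sema6d the smallest among ligands by body weight, and Sema7a the smallest by cage. Each window holds the 100 bases before a RefSeq start in GRCm38.p6, read 5′ to 3′ on the strand of the gene. For these 4 genes the start shown is also the start of the deposited gene model. Capitals mark the GC box hexamer GGGCGG or its reverse complement CCGCCC, the core letters that Sp1-type factors recognise. Sema4a and Sema6d have windows at other starts too, not shown, some with 0 hexamers (such as chr3:88459102-88459201 and chr2:124653481-124653580).
Plxnd1 (chr6:115995006-115995105, minus strand): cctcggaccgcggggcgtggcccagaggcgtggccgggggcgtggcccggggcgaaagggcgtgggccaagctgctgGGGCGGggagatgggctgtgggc
Sema4a (chr3:88461183-88461282, minus strand): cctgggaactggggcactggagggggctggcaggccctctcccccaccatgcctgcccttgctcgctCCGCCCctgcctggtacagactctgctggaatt
Sema6d (chr2:124089869-124089968, plus strand): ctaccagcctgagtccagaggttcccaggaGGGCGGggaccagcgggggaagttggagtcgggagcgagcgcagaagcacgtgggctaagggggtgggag
Sema7a (chr9:57940012-57940111, plus strand): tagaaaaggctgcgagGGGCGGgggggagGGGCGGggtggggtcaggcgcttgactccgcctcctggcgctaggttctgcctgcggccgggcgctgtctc
At least 1 hexamer stood in 25 of the 37 windows listed for 26 members, against 24.7% of all 32851 windows of this length in the RefSeq table. The windows of members were also richer in G and C, with a median of 68% against 55% over all windows. A match of letters is a description of the sequence and not a binding site, and no factor was measured here.

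Library totals ranged from 15273472 to 59682677 counted fragments, and the 31 members together took 0.0295 to 0.0756% of them. Of the members, 27 passed the filter on low counts (16 ligands and 11 receptors) among 14331 genes tested. Npr1, the targeted gene, had 13.6 ± 3.87 CPM (fragment counts scaled to a common library size with TMM; SD, n = 10) in the libraries labelled heterozygous and 12.2 ± 1.05 CPM (SD, n = 6) in those labelled wildtype. No lower Npr1 mRNA was detected in the libraries labelled heterozygous (log2 fold change 0.09, standard error 0.20, -0.067 without heterozygous mouse 6 and -0.094 without heterozygous mice 5, 6 and 7), and every direction below is between libraries as labelled. All markers of muscle fibres, endothelium, Schwann cells, fibroblasts, tendon, macrophages and mural cells that were listed had reads, and the 6 fibre markers summed to 94356 to 152614 CPM per library. The libraries of heterozygous mice 5, 6 and 7 stood apart from the other 13. In them long transcripts were over-represented, with a slope of log2 level on log2 gene length of 0.18, 0.24 and 0.32, whereas the next highest slope was 0.06. The median length of the receptor transcripts is 9054 bases and that of the tested ligands 5790 bases, against 4197 bases over all genes tested. The part of the length trend in the members' values was not tested. In bulk muscle, fewer cells of a type and less RNA per cell cannot be told apart.

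Ligands were expressed over a wide range, and a few class members carried most of the signal. Levels between genes are given per length, as FPKM (the CPM divided by the deposited gene length in kilobases), over all 16 libraries. Sema6c, a transmembrane class 6 semaphorin on chromosome 3 (95160457 to 95173653), had the highest mean at 17.7 ± 5.65 FPKM (SD, n = 16). Sema4d, the membrane-bound CD100 that signals through plexin B1, had 12.7 ± 3.28 FPKM. Sema3c, a secreted class 3 ligand on chromosome 5 (17574281 to 17730268), had 11.2 ± 1.54 FPKM and varied least among these 3. Sema6c was above Sema4d in 13 and Sema4d above Sema3c in 11 of 16 libraries, and each of these 2 gaps was smaller than the larger SD of its pair. Sema3c exceeded the next ligand in 16 of 16 libraries. That next ligand was Sema7a, a GPI-anchored semaphorin on chromosome 9 (57940112 to 57962865), with 5.88 ± 1.45 FPKM. Below it came Sema3g with 3.10 ± 1.56 FPKM, Sema3b with 2.26 ± 0.658 FPKM and Sema4c with 1.54 ± 0.589 FPKM, and the other 9 tested ligands had means from 0.105 FPKM (Sema3a) to 1.14 FPKM (Sema6b).

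Receptors were lower than the top ligands and led by a plexin and a neuropilin known from vessels. Plxnd1, the plexin of endothelial cells, on chromosome 6 (115954811 to 115995005), had 4.84 ± 2.26 FPKM (SD, n = 16). Nrp1, on chromosome 8 (128358604 to 128503363), binds both class 3 semaphorins and VEGF and had 2.86 ± 1.23 FPKM. The gap between Plxnd1 and Nrp1 was smaller than the larger SD, although Plxnd1 was above Nrp1 in 15 of 16 libraries. Nrp1 in turn exceeded Plxna1 (1.35 ± 0.957 FPKM), a signalling partner of neuropilins, in 16 of 16 libraries and by more than the larger SD. Plxnb2 (1.13 ± 0.545 FPKM), Nrp2 (1.06 ± 0.464 FPKM) and Plxna2 (0.803 ± 0.491 FPKM) followed, with gaps smaller than the spread. The remaining 5 were Plxnb3 with a mean of 0.385 FPKM, Plxna4 with 0.275 FPKM, Plxnb1 with 0.176 FPKM, Plxnc1 with 0.109 FPKM and Plxna3 with 0.0648 FPKM, and no gap between neighbours among them exceeded the larger SD. All 4 A-type plexins, all 3 B-type plexins, plexin C1 and plexin D1 were thus detected, although Plxna3, the lowest, was listed at 0 in 2 libraries.

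The 4 ligands that did not pass the filter were Sema3e, Sema4f, Sema4g and Sema5b. Sema3e, the class 3 ligand that binds plexin D1 without a neuropilin, had 3 to 22 fragments in libraries labelled heterozygous and 3 to 10 in those labelled wildtype, 128 in all. Sema4f, a transmembrane semaphorin, summed to 45 fragments over all libraries, and more than 3 were counted in only 5 of the 16. Sema4g summed to 113 and Sema5b to 101 fragments. The most fragments of each of the 4 were counted in heterozygous mouse 5, the library with the largest total (59682677). Scaled as CPM, the highest values were in heterozygous mouse 6 (Sema3e), mouse 7 (Sema4f and Sema4g) and mouse 2 (Sema5b). Each of Sema4f, Sema4g and Sema5b was at 0 in 2 libraries, where a count of 0 allows up to 3 fragments. Fitted without the filter, an alternative, none of the 4 was called by genotype label. Sema5b, with 0 to 27 fragments (median 6.5) under the heterozygous and 0 to 9 (median 3) under the wildtype label, then had the smallest p-value of the 4, with an estimate of 1.51 on the log2 scale (unadjusted p = 0.0625 by edgeR). The others gave 0.53 for Sema3e, -0.38 for Sema4g and -0.72 for Sema4f, and such folds depend on the prior count at so few fragments.

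The study compared the genotypes to learn what partial loss of GCA does to muscle, and between the labels no semaphorin, plexin or neuropilin passed the test. With cage and body weight in the fit, 0 of 27 members had an adjusted p-value under 0.05 by the quasi-likelihood test of edgeR (Benjamini-Hochberg adjustment over all genes), and the share of all 14331 genes called was 0%. At an unadjusted p-value under 0.05 stood 1 member, Sema4a, against 1.05% of all genes. With cage as the only covariate these were 6 members, all above 0 (Nrp2, Plxna1, Plxnb1, Sema4a, Sema6a and Sema7a), against 4.05% of all genes, and again 0 were called. DESeq2 and limma-voom also called 0 members. The ranges of the labels overlapped for all 27 members, and for all but 0.00698% of the genes tested.

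**Figure D1:**
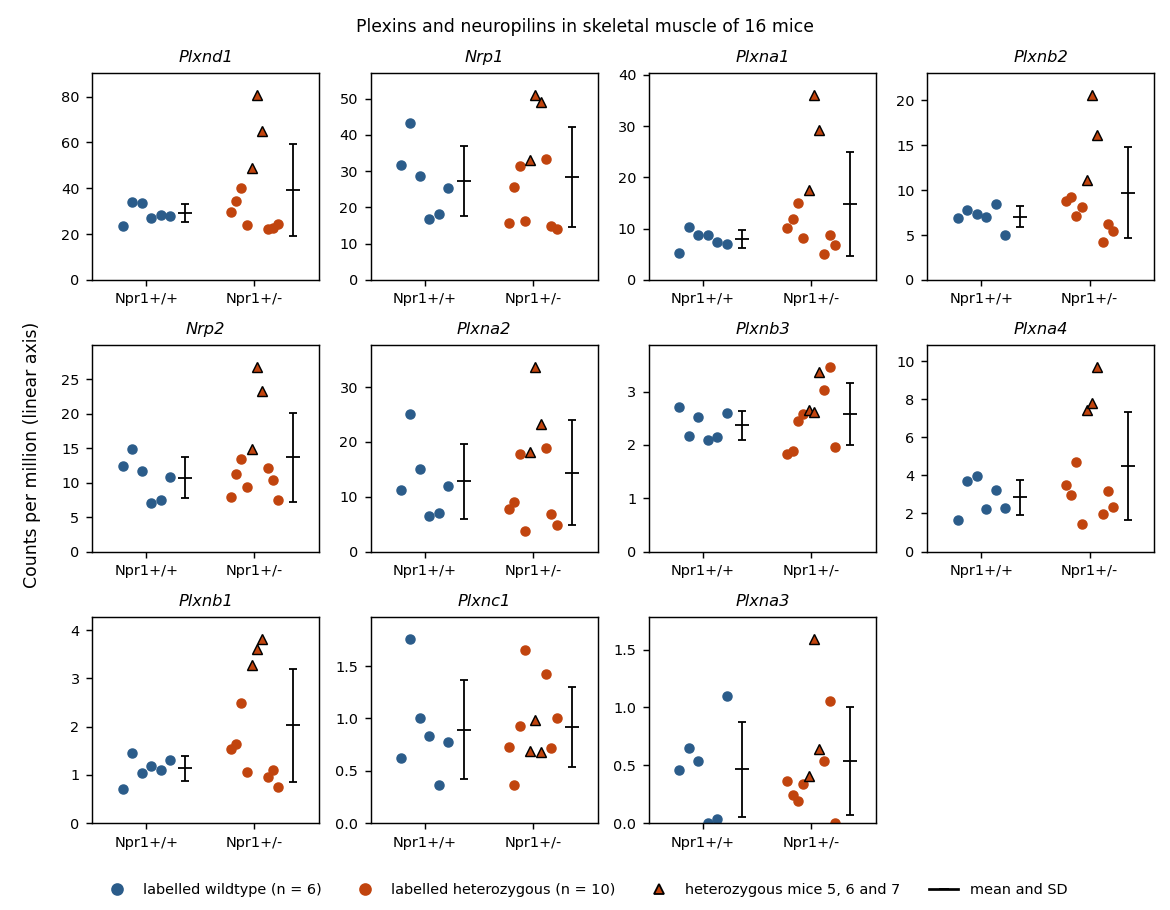
Level of each of the 11 receptors, in CPM on a linear axis, in the 6 libraries labelled Npr1+/+ and the 10 labelled Npr1+/-, with the mean and SD of each label as bars and panels ordered by level per length. Triangles are heterozygous mice 5, 6 and 7, which hold the highest values of most receptors, such as 80.6 CPM for Plxnd1 in mouse 6, while most values of the other heterozygous mice lie among the wildtype ones.

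Among the receptors, all 11 estimates lay above 0, with a median log2 fold change of 0.24 (range 0.13 to 1.24), whereas 48.4% of all genes lay above 0 and their median was -0.006. None of the 11 passed the test, and the size of the shift depended on single mice and on body weight in the fit. The median was 0.096, with 8 of 11 above 0, without wildtype mouse 4, and was 0.49 without wildtype mouse 5 and 0.55 with cage as the only covariate. Heterozygous mouse 6 held the highest value of 7 receptors and heterozygous mouse 7 of 2. The 11 receptors summed to 158, 265 and 224 CPM in heterozygous mice 5, 6 and 7, and to 69.0 to 145 CPM in the other 13 libraries. Without these 3 libraries, an alternative added after the data were seen, 7 of the 10 receptors still tested lay above 0, with a median of 0.12, beside 51.2% of all genes.

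Nrp2, the neuropilin of veins and lymphatics and the partner of Sema3f, ranged from 7.43 to 26.8 CPM around a median of 11.6 CPM in libraries labelled heterozygous, and from 7.03 to 14.9 CPM around 11.3 CPM in those labelled wildtype. The medians were close and only the 2 top heterozygous values, in mice 6 and 7, lay beyond the wildtype range. Its log2 fold change was 0.42 (standard error 0.28, unadjusted p = 0.151 and adjusted p = 1.0 by edgeR), and it was 0.52, 0.24, 0.35 and 0.84 within cages 675, 676, 677 and 678. Without mice 5, 6 and 7 it was 0.37, and without wildtype mouse 4 it was 0.17. Nrp1 gave a smaller estimate of 0.13 (standard error 0.33), with 14.0 to 50.9 CPM (median 28.5) against 16.7 to 43.2 CPM (median 27.1). Its direction turned on single mice, with -0.14 without wildtype mouse 4 and -0.061 without heterozygous mouse 8.

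Plxna1, which transmits class 3 signals held by neuropilins, ranged from 5.06 to 35.98 CPM around a median of 11.02 CPM in libraries labelled heterozygous and from 5.29 to 10.4 CPM around 8.03 CPM in those labelled wildtype. The 3 highest values were those of mice 6, 7 and 5. Its log2 fold change of 0.46 (standard error 0.31, unadjusted p = 0.159 by edgeR) became 0.10 without these mice. Plxnb1, the receptor of Sema4d, followed the same course, with 0.756 to 3.82 CPM (median 1.59) against 0.719 to 1.46 CPM (median 1.15), an estimate of 0.37 (standard error 0.31) and 0.06 without the 3 mice. Plxnd1 ranged from 22.02 to 80.6 CPM (median 32.1) against 23.7 to 33.9 CPM (median 28.1), and its estimate of 0.21 (standard error 0.25) turned to -0.04 without them.

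Plxna3, a receptor for Sema3f with Nrp2, had the largest estimate of all members, 1.24, and the largest standard error, 0.85. It ranged from 0 to 1.59 CPM in libraries labelled heterozygous (median 0.388) and from 0 to 1.10 CPM in those labelled wildtype (median 0.498), so the medians ran against the estimate. Plxnc1, the receptor of Sema7a, ranged from 0.364 to 1.65 CPM (median 0.831) against 0.369 to 1.76 CPM (median 0.804), with an estimate of 0.36 (standard error 0.41) that turned to -0.03 when wildtype mouse 5 was left out. Plxnc1 was not high in mice 5, 6 and 7, and its highest value came from wildtype mouse 2.

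**Figure D2:**
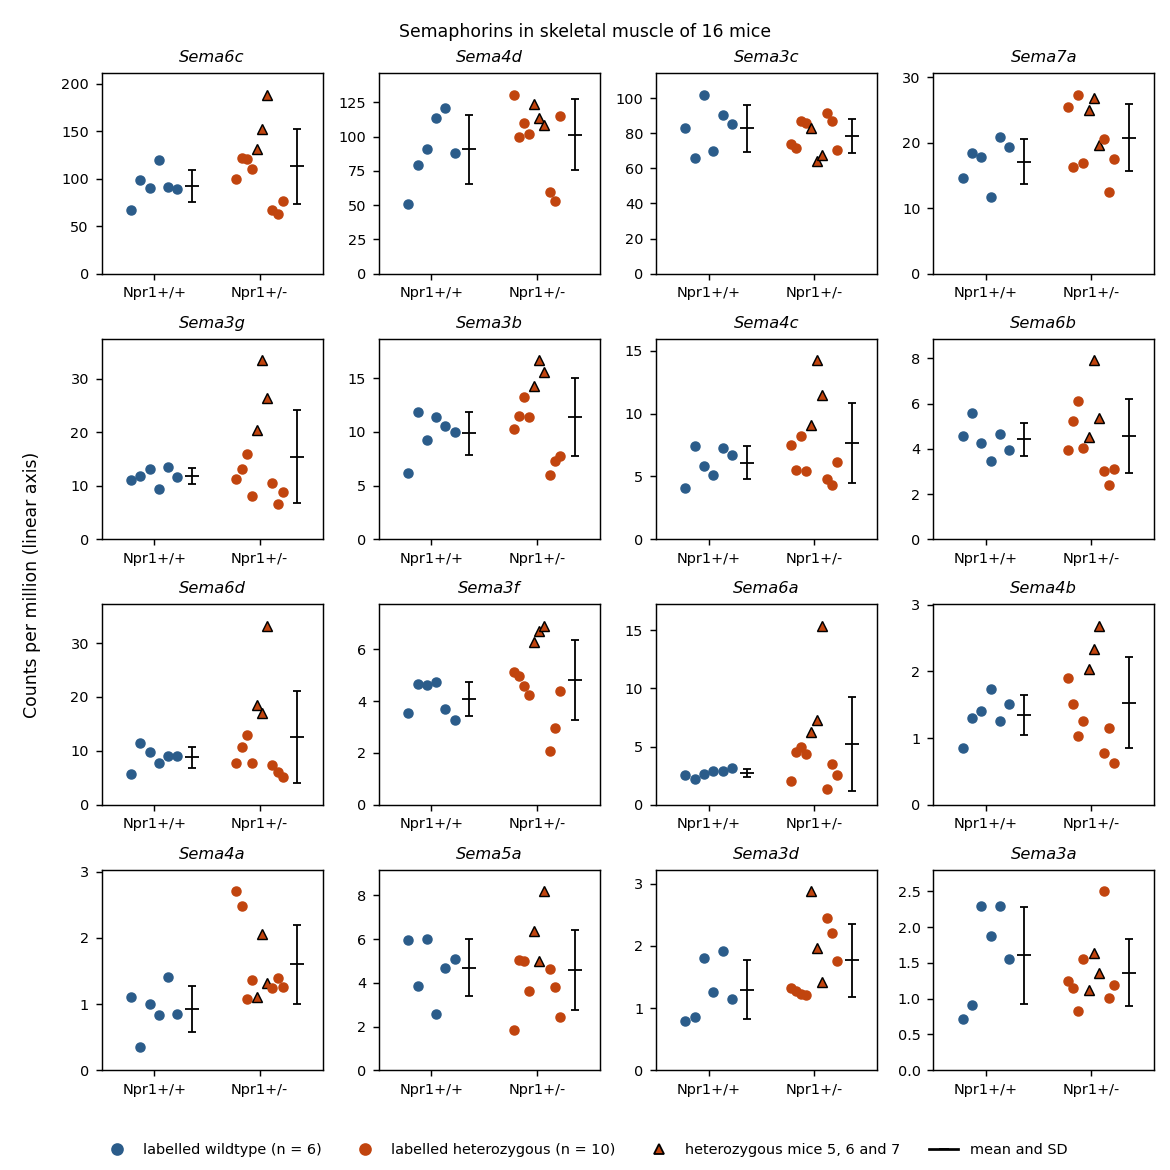
Level of each of the 16 tested ligands, in CPM on a linear axis, in the 6 libraries labelled Npr1+/+ and the 10 labelled Npr1+/-, with the mean and SD of each label as bars and panels ordered by level per length. Sema3c spans 64.0 to 102 CPM with the labels mixed, Sema6a and Sema6d have their highest value in heterozygous mouse 7 (15.4 and 33.2 CPM), and Sema4a has overlapping ranges with medians of 1.34 (heterozygous) and 0.931 CPM (wildtype).

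The ligands were evenly split between the labels. Of 16 tested, 8 estimates lay above 0 and 8 below, with a median log2 fold change of 0.00 (range -0.31 to 0.80). By class, 4 of 6 class 3, 2 of 4 class 4, 0 of 1 class 5, 1 of 4 class 6 and 1 of 1 class 7 lay above 0. The split depends on both covariates, since 14 of 16 ligands lay above 0 with cage as the only covariate and 12 of 16 with body weight as the only one (median 0.061). It also moved with single mice, from 5 of 16 without wildtype mouse 4 to 14 of 16 without wildtype mouse 5, and lay at 13 of 16 without heterozygous mouse 9 or 10.

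Sema4a, a membrane-bound class 4 semaphorin of immune cells on chromosome 3 (88435959 to 88461182), had the smallest p-value of all members. Its level was 1.08 to 2.71 CPM (median 1.34) in libraries labelled heterozygous and 0.352 to 1.40 CPM (median 0.931) in those labelled wildtype. The ranges overlapped, and the estimate of 0.80 on the log2 scale (1.75-fold, standard error 0.36) had an unadjusted p of 0.0423 and an adjusted p of 1.0 by edgeR. It lay above 0 within each cage, at 1.19, 0.20, 0.16 and 0.86 in cages 675 to 678, and at 0.68 without mice 5, 6 and 7.

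Sema7a, which acts through plexin C1 and beta1 integrins, ranged from 12.4 to 27.3 CPM (median 20.1) under the heterozygous and from 11.7 to 20.9 CPM (median 18.1) under the wildtype label, with an estimate of 0.26 (standard error 0.16, unadjusted p = 0.122 by edgeR), which was 0.11 without wildtype mouse 4. Sema3d, a secreted vascular and neural cue, had an estimate of 0.53 (standard error 0.33) that was 0.16 without mice 5, 6 and 7. It ranged from 1.21 to 2.88 CPM (median 1.59) against 0.784 to 1.92 CPM (median 1.20). Sema3a, the class 3 ligand of plexin A and Nrp1, was the ligand with the lowest estimate, -0.31 (standard error 0.32), with 0.833 to 2.50 CPM (median 1.22) against 0.719 to 2.30 CPM (median 1.71). Sema6a, a transmembrane ligand of plexins A2 and A4, had an estimate of 0.28 (standard error 0.36), and its range of 1.37 to 15.4 CPM (median 4.43) against 2.21 to 3.18 CPM (median 2.77) had its top in mouse 7. Of the 10 heterozygous values of Sema6a, 7 lay above the wildtype maximum and 3 did not. Without wildtype mouse 4 the estimate turned to -0.13.

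The 3 ligands with the highest levels had estimates close to 0 with body weight in the fit, and with cage as the only covariate Sema6c was at 0.28, Sema4d at 0.15 and Sema3c at -0.062. Sema6c ranged from 62.9 to 188 CPM (median 116) against 66.6 to 119 CPM (median 90.6), and its log2 fold change was -0.01 (standard error 0.20). Sema4d ranged from 53.2 to 131 CPM (median 109) against 50.8 to 121 CPM (median 89.5), with -0.08 (standard error 0.23). Sema3c, the steadiest, ranged from 64.0 to 91.2 CPM (median 78.5) against 65.8 to 102 CPM (median 84.2), with 0.01 (standard error 0.16). The labels were mixed through the ranges of Sema4d and Sema3c, whereas the 5 highest values of Sema6c were all heterozygous (mice 7, 6, 5, 2 and 3) and the lowest value was heterozygous too.

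**Figure D3:**
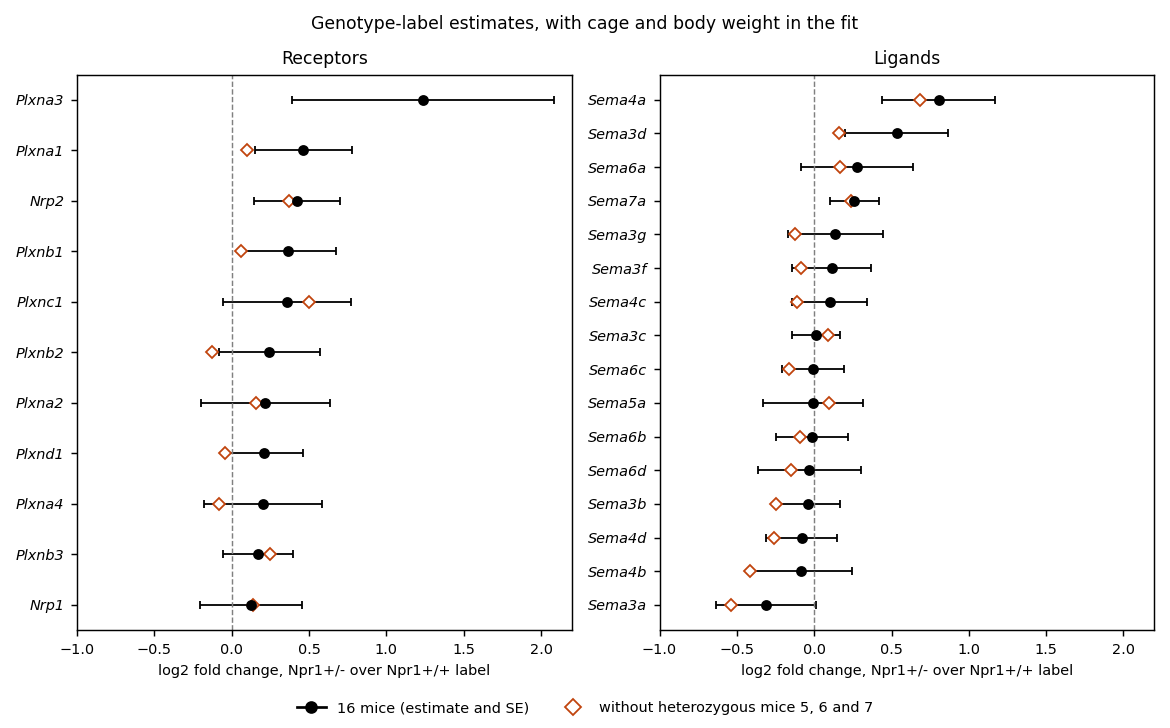
Log2 fold change of the libraries labelled Npr1+/- over those labelled Npr1+/+, from the edgeR fit with cage and body weight, for 11 receptors and 16 ligands, as filled points with the standard error as bars. Open diamonds are the same estimates without heterozygous mice 5, 6 and 7, where Plxna3 was not tested. All 11 receptors lie right of 0 with 16 mice, and 7 of 10 do without these mice.

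Within the cages the picture varied. Receptors were higher on average under the heterozygous label for 10 of 11 in cage 675, 6 of 11 in cage 676, 8 of 11 in cage 677 and 10 of 11 in cage 678. Ligands did so for 14, 1, 15 and 10 of 16. Over all genes tested the shares were 49.5%, 45.2%, 51.3% and 44.7%. These differences take no account of body weight, and 1 wildtype mouse stood alone in cages 676 and 678 and 1 heterozygous mouse, mouse 5, in cage 677.

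With body weight, several plexins and class 6 semaphorins had lower estimates in heavier mice, although no member passed the adjusted test. The question is one the study's own model raises, since it corrects for weight. Of 27 members, 0 had an adjusted p-value under 0.05 by edgeR's quasi-likelihood test, and 0% of all genes did. Limma-voom also called 0 members, and so did DESeq2 among the 18 to which it gave an adjusted p-value, which leaves out 9 members, Plxnb1 and Plxna4 among them. At an unadjusted p-value under 0.05, 10 members were lower in heavier mice (4 receptors and 6 ligands) and 0 were higher, beside 12.3% of all genes lower and 4.74% higher. The 4 receptors were Plxnb1, Plxna1, Plxna4 and Plxnd1, and the 6 ligands Sema6d, Sema6c, Sema6a, Sema4c, Sema3b and Sema3g. The smallest adjusted p-value among them was 0.245.

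Plxnb1 had the smallest p-value. It stood at 3.82 CPM in the lightest mouse (heterozygous mouse 7, 36.5 g), at 3.27 CPM in heterozygous mouse 5 (39.4 g) and at 2.50 CPM in heterozygous mouse 3 (40.1 g), but at 1.18 CPM in wildtype mouse 4 (40.5 g). In the 2 heaviest mice it was 1.46 CPM (wildtype mouse 2, 49.8 g) and 1.04 CPM (wildtype mouse 3, 54.0 g), and heterozygous mouse 6, of middling weight at 46.2 g, had 3.61 CPM. The high values were thus those of 3 light mice and of mouse 6. The estimate was -1.42 on the log2 scale per 10 g (standard error 0.40, unadjusted p = 0.00244 by edgeR), a level of 0.373 times for each 10 g.

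Sema6d, a transmembrane class 6 ligand of plexin A1, reached 33.2 CPM in mouse 7, 18.6 CPM in mouse 5 and 16.96 CPM in mouse 6, and 5.16 to 12.9 CPM in the other 13. Its estimate was -1.35 per 10 g (standard error 0.43, unadjusted p = 0.00605 by edgeR). Plxna1, its receptor, gave -1.21 per 10 g (standard error 0.42, unadjusted p = 0.0109), with 29.2 CPM in mouse 7 and 17.6 CPM in mouse 5 but the highest value, 35.98 CPM, in mouse 6. Sema6a, Sema6c and Sema6d, 3 of the 4 class 6 ligands, were among the 10, and the fourth, Sema6b, gave -0.36 per 10 g. The neuropilins were not among them, with -0.45 per 10 g for Nrp1 (standard error 0.42) and -0.32 for Nrp2 (standard error 0.35).

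**Figure D4:**
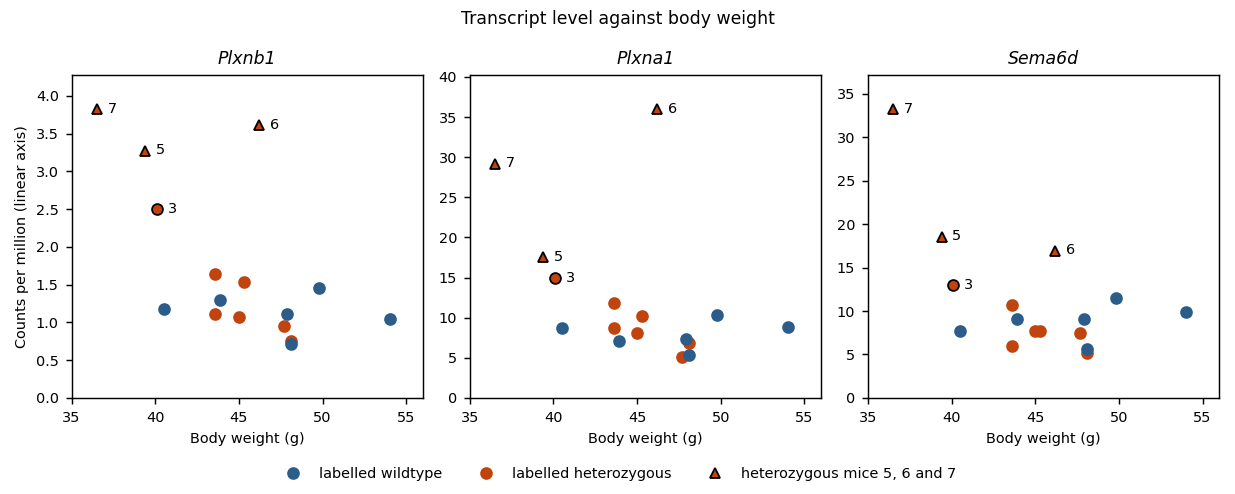
Level of Plxnb1, Plxna1 and Sema6d, in CPM on a linear axis, against body weight in g for the 16 mice, coloured by label, with heterozygous mice 5, 6 and 7 as triangles and mouse 3 outlined. The light mice 7, 5 and 3 lie above nearly all others, the light wildtype mouse 4 (40.5 g) does not, and mouse 6 is high at 46.2 g.

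This relation rested on cage in the fit and on a few mice. Without cage in the fit, 4 members were lower in heavier mice at an unadjusted p-value under 0.05 (Plxnb1, Sema6a, Sema6c and Sema6d, beside 5.17% of all genes lower). The estimate per 10 g was then -0.86 for Plxnb1, -0.87 for Sema6d and -0.51 for Plxna1. With a block on the replicate number in place of cage, it was -0.37, -0.065 and 0.095 in that order. Without heterozygous mouse 7 the relation held at an unadjusted p-value under 0.05 for 2 members, Plxnb1 and Sema3b (4.9% of all genes lower), and without mice 5, 6 and 7 for 1 of 26, Plxnb1 (2.96% of all genes lower). Without heterozygous mouse 3 the adjusted test called 12 of 27 members (5 receptors and 7 ligands), all lower in heavier mice, beside 13.7% of all genes called lower. With a correction for transcript length the count was 11, beside 14.6% of all genes lower, and 0 were called after adjustment. Macrophage markers ran the opposite way, with 7 of 8 estimates above 0 and 4 higher in heavier mice at an unadjusted p-value under 0.05, whereas 8 of 10 endothelial markers lay below 0 and 2 were lower. No macrophage marker stood at an unadjusted p-value under 0.05 with the length correction or without mice 5, 6 and 7. Without these 3 mice the endothelial markers did not hold either, with 6 of 10 below 0, 0 lower at an unadjusted p-value under 0.05 and a median of -0.054 per 10 g against -0.45. With all 16 mice, 2 of 6 fibroblast and 1 of 7 tendon markers were also higher in heavier mice at an unadjusted p-value under 0.05. Lower were 1 of 6 muscle fibre, 1 of 8 Schwann cell and 1 of 6 smooth muscle and pericyte markers. The fibroblast count was 2 with the length correction and 1 without mice 5, 6 and 7. The part of any cell type in the result was not tested.

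Between cages, receptors and Sema7a had the smallest p-values, and again none passed the test. Of 27 members, 0 passed the adjusted test for a difference between the 4 cages, and 0.0279% of all genes did. At an unadjusted p-value under 0.05 stood 11 members, 7 of the 11 receptors and 4 of the 16 ligands, beside 7.36% of all genes. The 7 receptors were both neuropilins, Plxna1, Plxna2, Plxna4, Plxnb1 and Plxnd1, and the 4 ligands Sema7a, Sema3g, Sema4c and Sema6b.

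Sema7a had the smallest p-value by cage (unadjusted p = 0.00319 and adjusted p = 0.584 by edgeR). In cage 675 it stood at 27.3 and 26.8 CPM in heterozygous mice 3 and 6 and at 18.4 and 17.9 CPM in wildtype mice 2 and 3. In cage 676 it was 25.4, 20.5 and 17.4 CPM in heterozygous mice 1, 8 and 10 and 20.9 CPM in wildtype mouse 5, and in cage 677 24.9 CPM in heterozygous mouse 5 and 14.6 and 19.3 CPM in wildtype mice 1 and 6. In cage 678 heterozygous mice 2, 4, 7 and 9 had 16.2, 16.95, 19.7 and 12.4 CPM and wildtype mouse 4 had 11.7 CPM. Cage 678 was low and cage 675 high on average (15.4 and 22.6 CPM), with overlapping ranges. DESeq2 called this 1 member by cage, with an adjusted p of 0.0271, beside 0.544% of all genes.

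Plxna1 and Plxna2, both A-type plexins, followed with unadjusted p-values of 0.00452 and 0.0078 by edgeR. Plxna2 averaged 22.9 CPM in cage 675 (15.02 to 33.6), 9.59 CPM in cage 676 (4.85 to 18.8), 13.7 CPM in cage 677 (11.2 to 18.2) and 9.91 CPM in cage 678 (3.84 to 23.2). Plxna1 averaged 17.5 CPM in cage 675 (8.80 to 35.98), 7.36 CPM in cage 676 (5.06 to 10.2), 9.98 CPM in cage 677 (5.29 to 17.6) and 13.3 CPM in cage 678 (8.11 to 29.2). Cage 675 had the highest mean of both, and its top value was heterozygous mouse 6. Without that mouse 1 member, Sema7a, stood at an unadjusted p-value under 0.05, beside 3.19% of all genes, and without heterozygous mouse 3 the adjusted test called 9 members (6 receptors and 3 ligands), beside 6.08% of all genes. With the correction for transcript length 7 members stood at an unadjusted p-value under 0.05, beside 7.45% of all genes, and the receptors among them were 3 of 11 (Plxna1, Plxna2 and Plxnd1) and the ligands 4 of 16.

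**Figure D5:**
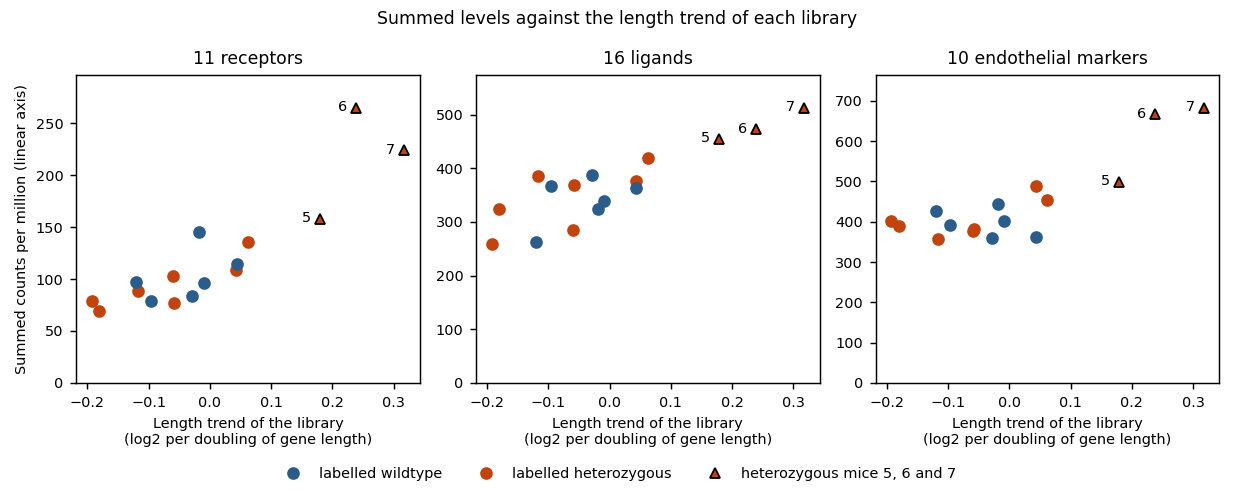
Summed CPM of the 11 receptors, the 16 tested ligands and 10 endothelial markers, on linear axes, against the length trend of each library (slope of log2 level on log2 gene length), coloured by label. Heterozygous mice 5, 6 and 7 have the highest slopes (0.18, 0.24 and 0.32) and the 3 highest sums in every panel.

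The summed levels of receptors, ligands and endothelial markers were high in the same libraries. The 16 ligands summed to 456, 473 and 513 CPM in heterozygous mice 5, 6 and 7 and to 258 to 420 CPM in the other 13. The 10 endothelial markers summed to 499, 667 and 683 CPM in these mice and to 358 to 489 CPM in the others. The markers were not of 1 pattern, since 7 of the 10 were highest in mouse 6 or 7, whereas Emcn and Egfl7 were lowest in mouse 7 and highest in heterozygous mouse 9, and Cldn5 was highest in heterozygous mouse 10. By label the endothelial sum was 358 to 683 CPM (median 427) for heterozygous and 359 to 445 CPM (median 396) for wildtype, and 9 of 10 endothelial estimates lay above 0 with none called. Tendon markers summed to 631 CPM in mouse 6 and to 206 to 481 CPM in all libraries but these 3, with 6 of 7 estimates above 0. The estimates above 0 were 5 of 6 for fibroblast, 5 of 8 for Schwann cell, 4 of 6 for smooth muscle and pericyte, 3 of 8 for macrophage and 1 of 6 for muscle fibre markers, and none was called. After the correction for transcript length, 11 of 11 receptors still lay above 0 (median 0.25, beside 55.4% of all genes) and 0 were called. What part transcript length or the share of endothelial RNA has in the members' values was not tested.

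With cage and body weight in the fit, the partners of the system were as even as the ligands. A list of 50 genes held 12 co-receptors and alternative receptors, 5 other neuropilin ligands and 33 cytoplasmic effectors, of which 46 were tested. Of these, 0 were called by genotype label and 0 stood at an unadjusted p-value under 0.05. Estimates lay above 0 for 7 of 10 co-receptors, 2 of 5 other neuropilin ligands and 15 of 31 effectors, with a median of 0.01 over the list. The count above 0 over the list was 24 of 46, beside 48.4% of all genes. It became 29 with the length correction (55.4% of all genes) and 17 without heterozygous mice 5, 6 and 7 (51.2% of all genes). Chl1, a neural adhesion molecule that pairs with Nrp1, had the smallest p-value above 0, with 0.504 to 1.47 CPM (median 1.10) against 0.278 to 1.58 CPM (median 0.779) and an estimate of 0.69 (standard error 0.37). Dpysl3, a collapsin response mediator that acts on microtubules and actin, had 0.24 (standard error 0.25). Below 0, Rras, a GTPase that plexins switch off, had -0.20 (standard error 0.16) and Vegfb, a VEGF that binds Nrp1, had -0.18 (standard error 0.16). Without wildtype mouse 4 the estimates of Chl1, Dpysl3 and Vegfb were 0.27, 0.072 and -0.035, and that of Rras was 0.0045. Nrcam, Cd72, Crmp1 and Dpysl4 did not pass the filter. By body weight, 13 of the 46 were lower and 3 higher in heavier mice at an unadjusted p-value under 0.05, beside 12.3% and 4.74% of all genes, and 0 were called. Without heterozygous mice 5, 6 and 7, 1 was lower and 2 were higher, beside 2.96% and 2.1% of all genes.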

How the data were processed

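Each library holds poly-A RNA of skeletal muscle from 1 mouse, sequenced as 52-base pairs. The authors mapped reads to GRCm38 with STAR (2.7.2b in the submitters' processing notes), counted fragments with both ends aligned on the GENCODE M24 genes with featureCounts (1.6.4 in those notes; another version in the paper's methods), and deposited raw counts per gene. The paper's methods and the labels name different library kits. The gene length is the value deposited beside the counts and served for FPKM and the length correction only. Symbols were paired with 55144 of 55471 identifiers. The sample labels gave genotype, cage and body weight.

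Counts were filtered with filterByExpr by label, scaled with TMM and tested with edgeR 4.0.16 in R 4.3.3 (glmQLFit with robust = TRUE and legacy = TRUE, glmQLFTest), with label, cage and body weight in 1 fit over all 16 libraries. Benjamini-Hochberg adjustment ran over the 14331 genes tested, with a threshold of 0.05. The filter, the scaling and the legacy setting are not stated in the study's methods. P-values set each estimate against the spread between mice that is left after the fit. Totals and floors cover counting error only, and 3 counts was taken as the floor. log2 CPM within cages used a prior count of 2. The length correction subtracted a loess trend (span 0.5) of each library on log2 gene length. Promoter windows came from RefSeq. The fit, with and without the length correction, was run on simulated counts that held a label effect or none. Those counts held no cage, weight or length effect, so such effects were not covered.

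Named in full were the 5 receptors and 5 ligands with the smallest genotype p-values, the 3 of each with the highest levels, the 3 members with the smallest p-values for weight and for cage, the members below the filter and, of the partner list, the 2 genes with the smallest p-values in each direction. The gene family and the lists were chosen with earlier results of these data known, and the members of the family were then taken by symbol. Alternatives were fewer covariates, a block on the replicate number, DESeq2 1.42.0, limma-voom (limma 3.58.1), other size factors, filters and fit settings, the length correction and leaving out each mouse. The fits without mice 5, 6 and 7 and with block and length correction together were added after the data were seen. Protein sequences and the promoter of Sema6a were not used here.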

Additional observations from a re-analysis of the deposited data

How the results depend on the processing

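No member and no gene of the partner list was called by genotype label in any alternative, leave-one-out fits included. Genes called among all tested were 2 with the replicate block, 4 with block and length correction, 6 with DESeq2, 8 without a filter and 1 without heterozygous mice 5, 6 and 7, against 0. Members at an unadjusted p-value under 0.05 by label were 4 with the label alone (544 of 14331 genes), 6 with cage only (581 genes) and 7 with the block (1294 genes), against 1 (151 genes), and by weight 0 with the block. Ligands above 0 numbered 13 with the label alone, 14 with cage as the only covariate and 13 with the block, with or without length correction, and their median was then 0.40 and 0.32. Receptors above 0 were 7 without mice 5, 6 and 7, 10 with the block (median 0.52) and 8 with block and length correction (median 0.42). DESeq2 called 1 member by cage. Leaving out each mouse gave 0 to 3 genes called by label, 5 to 14 ligands and 8 to 11 receptors above 0, ligand medians of -0.087 to 0.22 and receptor medians of 0.096 to 0.49, and 0 to 12 members called by weight and 0 to 9 by cage, both highest without heterozygous mouse 3.

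The labels share replicate numbers, but same-numbered mice are different animals, so the number is not a pairing. Their deviations correlated weakly (mean r = 0.0779, from 0.0328 to 0.170, over 6 pairs), beside a mean of -0.00816 over 54 differently numbered pairs. In the block fit Sema6c was at 0.38, Sema4d at 0.35, Sema3c at -0.047 and Sema6d at 0.43, and with the length correction at 0.30, 0.23, -0.14 and 0.27, with Nrp1 at -0.084, Plxna2 at -0.16 and Vegfb at 0.11.

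Other estimates changed sign too, including some as large as 0.36 (Plxnc1) and 0.28 (Sema6a). With the label alone Sema6c was 0.29, Sema4d 0.16, Sema3c -0.082, Sema6d 0.53 and Dpysl3 -0.035. With cage only the ligands were 0.28, 0.15, -0.062 and 0.54 in that order, and with weight only 0.045, 0.077, -0.028 and 0.011, with Nrp1 at -0.022. Sema6c was 0.0016 with RLE or DESeq2 and 0.0040 without a filter, Sema3c -0.0025 with library size only, and Sema6d 0.044 with limma-voom. Without mice 5, 6 and 7, Plxnd1 was -0.041 and Npr1 -0.094. Leaving out each mouse gave -0.097 to 0.10 for Sema6c, -0.20 to 0.021 for Sema4d, -0.054 to 0.099 for Sema3c, -0.42 to 0.23 for Sema6d, -0.14 to 0.25 for Nrp1, -0.074 to 0.42 for Plxna2, -0.033 to 0.61 for Plxnc1, -0.13 to 0.73 for Sema6a, -0.31 to 0.0045 for Rras and -0.067 to 0.23 for Npr1. Without a change of sign the ranges were 0.17 to 0.54 for Nrp2, 0.18 to 0.72 for Plxna1, 0.18 to 0.60 for Plxnb1, 0.0094 to 0.41 for Plxnd1, 0.67 to 1.88 for Plxna3, 0.61 to 1.04 for Sema4a, 0.11 to 0.39 for Sema7a, 0.26 to 0.81 for Sema3d, -0.44 to -0.15 for Sema3a, 0.27 to 0.89 for Chl1, 0.072 to 0.34 for Dpysl3 and -0.24 to -0.035 for Vegfb. The causes were not tested. Depth limits the 4 ligands below the filter and Plxna3.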
